A study of Gallus gallus with 40 samples.

Results

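Chorioallantoic membranes of male embryos were compared between day 15 and day 11 of incubation, in 20 of the 40 libraries of a study of Ross 308 broiler chickens, a fast-growing meat breed. The 20 libraries are all those labelled male, with 10 membranes at day 15 and 10 at day 11, each from a different embryo. The other 20 libraries come from female embryos of the same days and enter here only to ask whether a change differed between the sexes. Both day groups share breed, sex (ZZ), 3 days of egg storage at 16 °C and the same incubation conditions. The labels also number the embryos, from 52 to 100 at day 15 and from 2 to 48 at day 11, so that day of incubation and the range of numbers cannot be told apart. No egg was treated, and each library stands for a whole membrane, in which a lower level of a transcript can come from fewer cells of a type or from less RNA per cell. These 2 cannot be told apart in bulk RNA.

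The chorioallantoic membrane forms when the allantois of the bird embryo fuses with the chorion. Its outer epithelium lies against the shell membranes and takes up shell calcium, its dense capillary bed exchanges respiratory gases through the shell pores, and its inner epithelium borders the allantoic fluid, from which it recovers ions and water. Mesenchyme with larger vessels, smooth muscle and blood cells lies between the epithelia.

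Expression was measured by RNA sequencing and is given as FPKM, fragments scaled by gene length and library depth, for 26152 gene models of the chicken build GRCg6a. Male libraries held 30800000 to 39300000 reads (median 35400000), by the size of the steps between low values, and a permutation test did not separate the days by depth (p = 0.871). Gene models on chromosome W, which only females carry, summed to between 4.16 and 13.8 FPKM in each male library and to between 1224 and 2182 FPKM in each female one. Markers of the expected tissues were present in all male libraries, among them KRT7 with a median of 2186 FPKM in day 15 males and 1420.2 FPKM in day 11 males. Haemoglobin genes took 3.84 ± 1.54% of summed FPKM in day 15 males and 4.45 ± 0.61% in day 11 males (mean ± SD, n = 10 each), which a permutation test did not separate (p = 0.270). The day 15 male with embryo number 81 stood apart at 7.61%, against 4.66% in the next highest library of its day. At day 11 the libraries split by the number given to the embryo. Scaling factors were 1.03 to 1.07 in the 5 males numbered 24 to 48, against 0.965 to 0.997 in the 5 numbered 2 to 16, and 2103 of 13495 genes were higher and 2066 lower in the males numbered 24 to 48 than in the others by limma. In a test of a trend with the embryo number within a day, 0 of 13412 genes followed it at day 15 by limma (1201 at an unadjusted p below 0.05), against 2813 of 13495 at day 11. For list counts and the genes of the naming rule, values against each part of the day 11 group are given where the split ended the call or moved the value by over 1.5 times.

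Many genes differed between the day 15 and the day 11 males. Of 14934 genes tested, 3558 (23.8%) were higher and 3665 (24.5%) lower at day 15, together 48.4% of the tested genes. A gene is called here when its Benjamini-Hochberg adjusted p over all tested genes is below 0.05 in limma's moderated test, and each log2 fold change is day 15 over day 11 on the scale log2(scaled FPKM + 0.1), with its standard error. Values given below as a fold change or a change are on this log2 scale. This scale understates the change of genes with low levels. Changes of at least 2-fold were made by 628 of the higher and 599 of the lower genes. All 10 day 15 males lay above all 10 day 11 males in 795 genes (5.32%) and below them in 901 genes (6.03%). The median log2 fold change over all tested genes was 0.0019, a value that the scaling of the libraries holds near 0. The first principal component, with 43.1% of the variance of the 500 most variable genes, owed 97.7% of its variance to day. The plot of change against level shows both directions at all levels of expression, with 17.2% higher and 19.7% lower among genes with a mean below 0 on the log2 scale and 25.8% higher and 29.8% lower among those above 6.

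**Figure D1:**
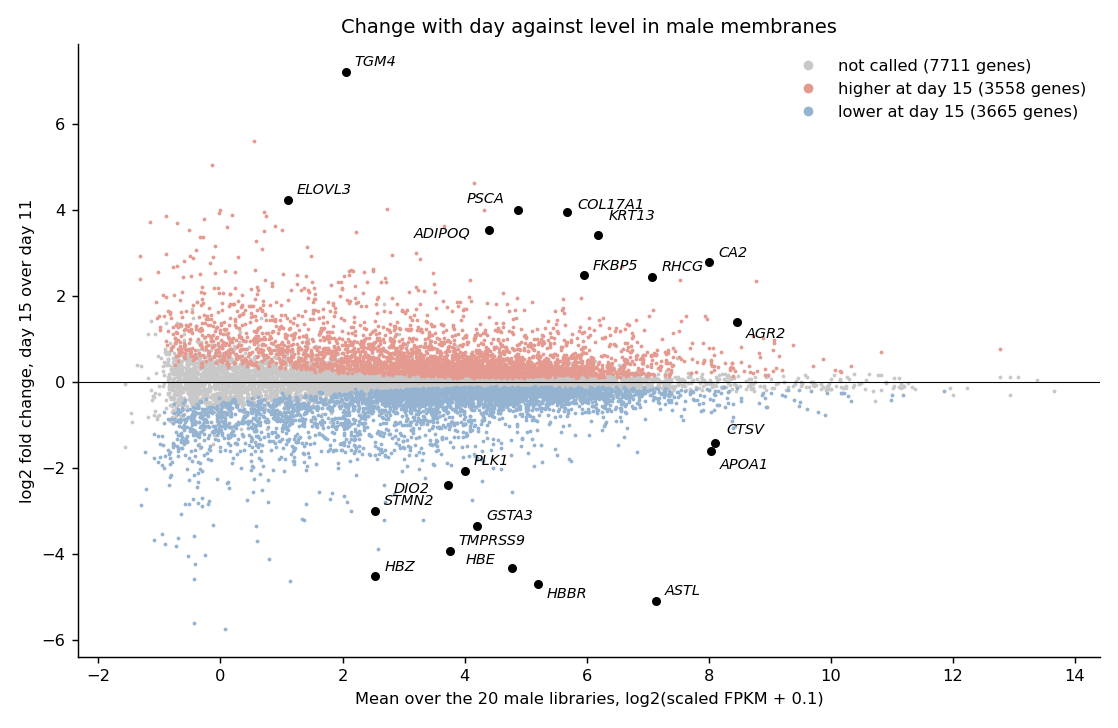
log2 fold change (day 15 over day 11, vertical axis) against mean level over the 20 male libraries (horizontal axis, log2(scaled FPKM + 0.1)) for the 14934 tested genes. Red points are the 3558 genes higher at day 15, blue points the 3665 genes lower, grey points are not called, and black points are named genes, with TGM4 the farthest above zero among them and ASTL the farthest below.

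Largest changes are ranked here among called genes with a symbol and a mean level of at least 1 on the log2 scale. The largest increases included genes of epithelia and enzymes of lipids and steroids. TGM4, a transglutaminase that crosslinks proteins and is best known from the human prostate (ENSGALG00000033171, chromosome 2, 43102691 to 43113228), had a lowest, median and highest value of 29.2, 54.6 and 103 FPKM in day 15 males, against 0.102, 0.239 and 0.565 FPKM in day 11 males. Every day 15 male exceeded every day 11 male by a wide margin, and the log2 fold change was 7.22 ± 0.26 (adjusted p = 1.62e-14). ELOVL3, an elongase of very long fatty acids, had 4.09, 10.5 and 15.6 FPKM in day 15 males, against 0.134, 0.473 and 0.921 FPKM in day 11 males, with a fold change of 4.24 ± 0.31 (adjusted p = 3.06e-10). HSD3B1, the enzyme that makes progesterone from pregnenolone, had 11.6, 29.9 and 43.3 FPKM in day 15 males, against 0.493, 1.49 and 2.99 FPKM in day 11 males, with a fold change of 4.03 ± 0.27 (adjusted p = 9.06e-11). Neither gene overlapped between the days.

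Genes of surface proteins and of basal or stratified epithelia were also among the largest increases. Which cells of the membrane expressed PSCA and MSLN was not tested. PSCA, a lipid-anchored surface protein (ENSGALG00000045875, chromosome 2, 148270497 to 148274492), had 49.3, 136 and 187 FPKM in day 15 males, against 2.48, 6.93 and 18.2 FPKM in day 11 males and changed by 3.99 ± 0.33 (adjusted p = 1.54e-09). MSLN, another lipid-anchored surface protein that marks mesothelium in mammals, had 23.5, 52.5 and 86.9 FPKM in day 15 males, against 2.46, 3.50 and 4.92 FPKM in day 11 males and changed by 3.64 ± 0.20 (adjusted p = 5.92e-12). COL17A1, the transmembrane collagen of hemidesmosomes (ENSGALG00000029617, chromosome 6, 25087347 to 25127305), had 138, 207 and 253 FPKM in day 15 males, against 6.79, 12.9 and 25.4 FPKM in day 11 males and changed by 3.95 ± 0.20 (adjusted p = 2.3e-12). In these 3 genes the lowest day 15 male was well above the highest day 11 male. KRT13, a keratin of stratified epithelia, had 175, 253 and 318 FPKM in day 15 males, against 15.3, 21.2 and 37.6 FPKM in day 11 males and changed by 3.43 ± 0.14 (adjusted p = 1.79e-13), also without overlap.

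The other 5 of the 12 largest increases in this ranking were ISLR2, ADIPOQ, ZBTB32, CLIC5 and ALDH1L2, with fold changes of 3.54, 3.54, 3.49, 3.13 and 3.00. Genes with a lower mean level are not ranked, among them KRT6A, SRD5A2 and KRT40, with fold changes of 5.61 ± 0.38, 3.53 ± 0.32 and 3.11 ± 0.32. For ISLR2 the fold change was 4.15 against the day 11 males numbered 2 to 16 and 2.92 against those numbered 24 to 48. ADIPOQ encodes adiponectin, a hormone of fat tissue in mammals, and had 48.6, 73.3 and 91.5 FPKM in day 15 males, against 3.24, 6.59 and 10.6 FPKM in day 11 males. All its day 15 values lay far above the day 11 range. ZBTB32 is a zinc finger repressor and CLIC5 a channel-family protein linked to the cytoskeleton. ALDH1L2, a mitochondrial enzyme of folate metabolism, had a median of 25.9 FPKM in day 15 males and 3.05 FPKM in day 11 males. None of the 12 genes overlapped between the days.

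The largest decreases included 3 embryonic globins, the proteases ASTL and TMPRSS9 and a glutathione transferase. ASTL, an astacin-like metalloprotease (ENSGALG00000037220, chromosome 5, 22587180 to 22599063), had 0.327, 33.2 and 1210.1 FPKM in day 15 males, against 199, 1026 and 2514 FPKM in day 11 males, the widest spread of any named gene. Day 15 males reached from almost no transcript to the middle of the day 11 range, so the groups overlapped, and the fold change was -5.08 ± 1.20 (adjusted p = 0.00153). Against the 5 day 11 males numbered 2 to 16 alone the adjusted p was 0.0550, with a fold change of -4.04, and against the 5 numbered 24 to 48 the fold change was -6.12. HBBR, the embryonic rho globin, had 3.36, 7.46 and 16.7 FPKM in day 15 males, against 126, 182 and 319 FPKM in day 11 males, a fold change of -4.69 ± 0.24 (adjusted p = 2.34e-12). HBE and HBZ, the embryonic epsilon and zeta-like globins, changed by -4.31 ± 0.20 and -4.51 ± 0.31. For all 3 globins every day 15 male was below every day 11 male, while the abundant HBA1 and HBAD had medians of 11122 FPKM in day 15 males and 14599.5 FPKM in day 11 males for HBA1 and of 6803 FPKM in day 15 males and 8792 FPKM in day 11 males for HBAD, and were not called. Globin genes are near-identical in part, so reads may be shared among them.

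TMPRSS9, a membrane-anchored serine protease, had 2.34, 2.91 and 7.57 FPKM in day 15 males, against 40.3, 47.0 and 84.8 FPKM in day 11 males and changed by -3.92 ± 0.20 (adjusted p = 2.34e-12). GSTA3, a glutathione transferase, had 1.73, 6.12 and 15.2 FPKM in day 15 males, against 43.8, 57.9 and 86 FPKM in day 11 males and changed by -3.34 ± 0.24 (adjusted p = 2.72e-10). Both were lower in all day 15 males than in any day 11 male. OVA, the gene of the egg-white protein ovalbumin, changed by -3.17 ± 0.63 (-2.08 against the day 11 males numbered 2 to 16 and -4.28 against those numbered 24 to 48), with overlapping groups; OVA shares exon sequence with a gene model on the other strand. APOC3, a protein of triglyceride-rich lipoproteins, changed by -3.00 ± 0.37, and HPGDS, the haematopoietic prostaglandin D synthase, by -2.78 ± 0.27, both without overlap. STMN2, a neuronal microtubule regulator, and TMEM158 changed by -2.99 ± 0.43 and -2.65 ± 0.30 with overlap.

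**Figure D2:**
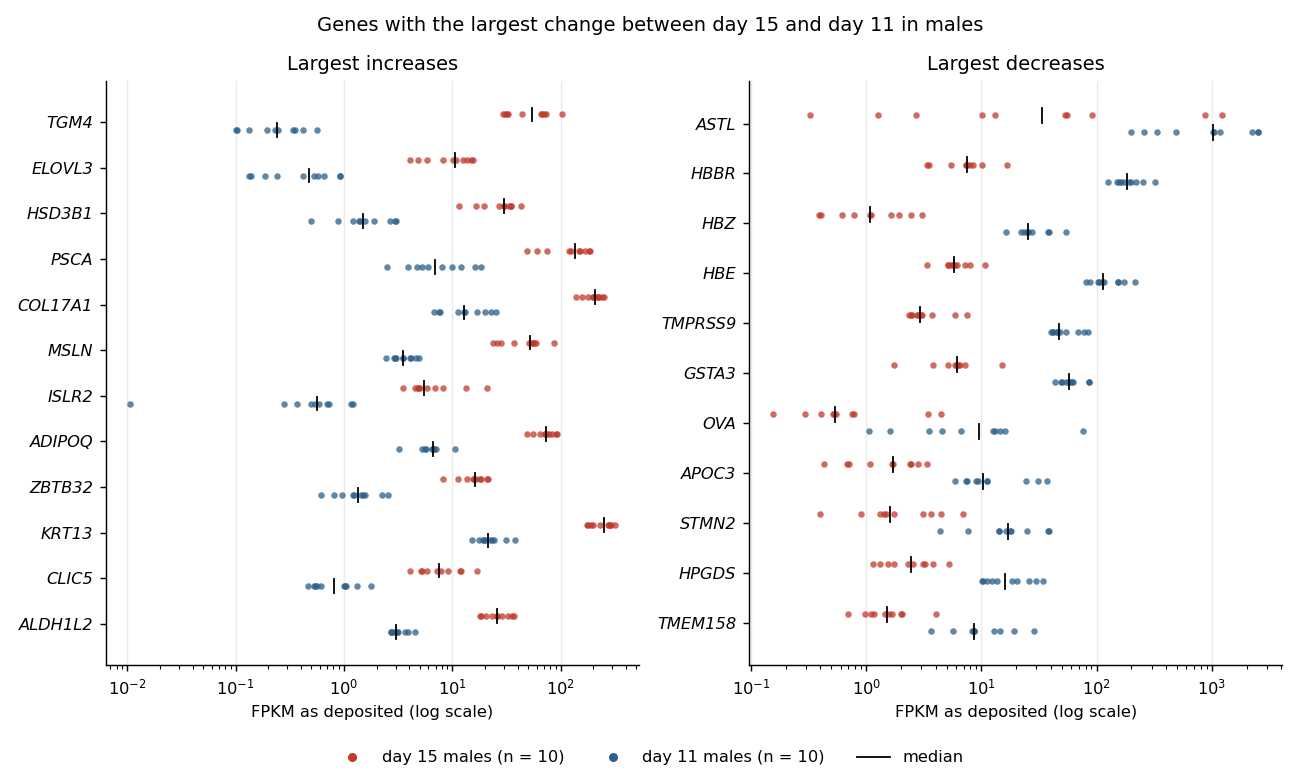
Deposited FPKM (horizontal log axis) of the 12 genes with the largest increase (left) and 11 of those with the largest decrease (right) in each of the 20 male libraries. Both are ranked among called genes with a symbol and a mean log2 level of at least 1. Red points are the 10 day 15 males and are drawn over the blue points of the 10 day 11 males in each row, and black ticks are medians. The increases do not overlap between days, while ASTL reaches from 0.327 to 1210.1 FPKM within day 15.

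Among genes with a change of at least 2-fold, the most abundant that rose included ANXA1, AGR2, CA2, KRT17 and KRT14. AGR2, a secretory pathway protein of mucous epithelia, had 317, 609 and 722 FPKM in day 15 males, against 164, 225 and 247 FPKM in day 11 males, a fold change of 1.40 ± 0.12 (adjusted p = 2.66e-09) without overlap. ANXA1, a calcium-binding membrane protein, reached a median of 664 FPKM in day 15 males and 335 FPKM in day 11 males, with overlapping groups. The most abundant that fell were MDK, FABP3, CTSV, APOA1, ASTL and STMN1. FABP3, an intracellular fatty acid carrier, had 189, 234 and 270.3 FPKM in day 15 males, against 423, 488 and 627 FPKM in day 11 males and changed by -1.07 ± 0.087 (adjusted p = 1.39e-09), without overlap. APOA1, the main protein of high-density lipoprotein, had a median of 156 FPKM in day 15 males and 456 FPKM in day 11 males, CTSV, a lysosomal cysteine protease, of 151 FPKM in day 15 males and 499 FPKM in day 11 males, and MDK, the growth factor midkine, of 259 FPKM in day 15 males and 473 FPKM in day 11 males.

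Epithelial structure genes rose together. Of 11 tested keratins 10 were higher at day 15 and 0 lower, against 23.8% higher among all genes, with a median log2 fold change of 1.53. In 7 of them all day 15 males lay above all day 11 males, against 5.32% of all genes. KRT6A and KRT40 had low levels, with medians of 7.69 FPKM in day 15 males and 0.0893 FPKM in day 11 males for KRT6A and of 4.29 FPKM in day 15 males and 0.480 FPKM in day 11 males for KRT40, and did not overlap. The basal keratins KRT14 and KRT17 changed by 1.53 ± 0.15 and 1.53 ± 0.22, and had medians of 342 FPKM in day 15 males and 119 FPKM in day 11 males for KRT14 and of 444 FPKM in day 15 males and 141 FPKM in day 11 males for KRT17. KRT7, a keratin of simple epithelia, and KRT24 changed by 0.70 ± 0.11 and 0.55 ± 0.079, and KRT18 was not called (-0.09 ± 0.10). The summed level of the 14 keratin models was 4594 to 6720 FPKM in day 15 males, against 2928 to 4603 FPKM in day 11 males. Neighbouring keratin genes are similar in sequence and may share reads.

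Of 38 genes of junctions and hemidesmosomes 30 rose (78.9%, against 23.8% of all genes) and 5 fell (13.2%, against 24.5%), with a median change of 0.44. In 15 of them day 15 lay wholly above day 11 (5.32% of all genes did), and in 1 wholly below (6.03% of all genes). Hemidesmosomes anchor basal cells to the basement membrane. Beside COL17A1, ITGA6, the integrin alpha chain of hemidesmosomes, had 52.1, 93.3 and 118 FPKM in day 15 males, against 14.6, 26.5 and 44.3 FPKM in day 11 males and changed by 1.74 ± 0.18 (adjusted p = 7.59e-08), without overlap. The laminin chain genes LAMB3 and LAMA3 changed by 1.28 ± 0.15 and 1.0 ± 0.13. Gap junction genes of epithelia rose as well, GJB2 by 2.55 ± 0.26 and GJB6 by 1.38 ± 0.16, whereas GJB1 fell by 1.59 on the log2 scale. GJB2 overlaps a gene model on the other strand. Desmosome genes PKP1, PPL and DSP changed by 1.33 ± 0.17, 1.21 ± 0.10 and 1.09 ± 0.12, the tight junction gene CLDN3 by 1.14 ± 0.074 and E-cadherin, CDH1, by 0.76 ± 0.085. The 5 members that fell were CTNNB1, GJB1, CDH2 and the vascular genes CDH5 and GJA5.

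Among 34 transcription factors of epithelia 15 rose (44.1%, against 23.8% of all genes) and 6 fell (17.6%). ELF3, an ETS factor of simple epithelia, had 96.8, 120.3 and 139 FPKM in day 15 males, against 31.8, 43.9 and 61.7 FPKM in day 11 males and changed by 1.46 ± 0.085 (adjusted p = 1.27e-11), without overlap. DLX3 and KLF5 changed by 1.26 ± 0.21 and 1.14 ± 0.11, and TP63, the factor of basal cells in stratified epithelia, by 0.93 ± 0.16, with a median of 17.1 FPKM in day 15 males and 8.21 FPKM in day 11 males. GRHL3, GATA6 and FOXA2 were among the 6 that fell. In a list of 17 genes of cornification and secreted barriers 6 rose (35.3%, against 23.8% of all genes), TGM4, ELOVL3 and AGR2 among them. The 3 that fell (17.6%, against 24.5%) were ELOVL6, CSTA and SPINK5.

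**Figure D3:**
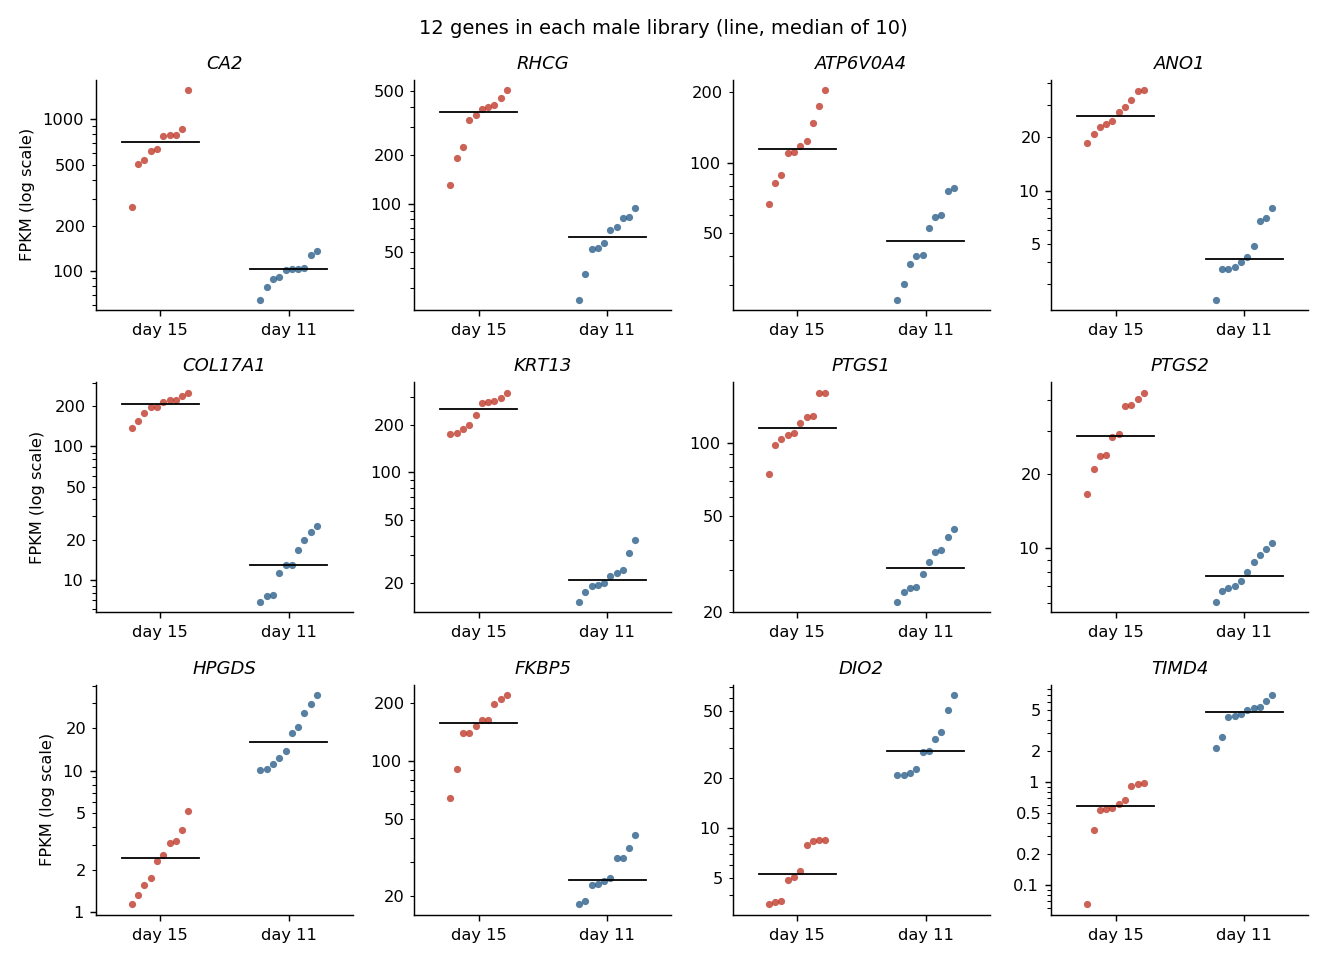
FPKM (vertical log axes) of 12 genes in each male library, with day 15 males in red on the left and day 11 males in blue on the right, sorted by value within a day. Lines are medians of 10 libraries. The groups do not overlap except in ATP6V0A4, where the lowest day 15 value, 66.5 FPKM, lies below the highest day 11 value, 78.4 FPKM.

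Acid-base genes rose more often than they fell. The V-ATPase is the proton pump by which acid-secreting cells dissolve shell calcium carbonate, and carbonic anhydrase supplies its protons. CA2, the cytosolic carbonic anhydrase that red cells also hold, had 263, 706 and 1546 FPKM in day 15 males, against 65.3, 103 and 135 FPKM in day 11 males and changed by 2.79 ± 0.21 (adjusted p = 5.71e-10). RHCG, an ammonia channel of acid-secreting epithelia, had 129.6, 370.2 and 505 FPKM in day 15 males, against 25.4, 62.4 and 93.1 FPKM in day 11 males and changed by 2.45 ± 0.24 (adjusted p = 3e-08). Both were higher in every day 15 male than in any day 11 male. Of 26 tested acid-base genes 13 rose (50%, against 23.8% of all genes) and 4 fell (15.4%, against 24.5%). SLC9A2, a sodium-proton exchanger, changed by 1.57 ± 0.24, the lactate carriers SLC16A3 and SLC16A7 by 1.54 ± 0.19 and 1.16 ± 0.12, and FOXI1, the transcription factor of acid-secreting cells in mammals, by 0.49 ± 0.18. The 4 that fell were SLC9A3R1, CA8, SLC4A9 and SLC4A8, the last pair by -1.44 ± 0.31 and -1.44 ± 0.17.

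Of 20 V-ATPase genes 13 rose (65%, against 23.8% of all genes) and 1 fell (5%, against 24.5%), with a median change of 0.42. The subunit isoforms known from kidney intercalated cells in mammals changed most. ATP6V0D2 had 38.6, 73.4 and 113 FPKM in day 15 males, against 16.7, 28.1 and 46.9 FPKM in day 11 males and changed by 1.36 ± 0.18 (adjusted p = 2.06e-06), with overlapping groups. ATP6V0A4 had 66.5, 115 and 204 FPKM in day 15 males, against 26.1, 46.6 and 78.4 FPKM in day 11 males and changed by 1.34 ± 0.21, ATP6V1C2 by 1.26 ± 0.15 and ATP6V1G3 by 0.60 ± 0.17. Counterparts of these isoforms found in most cells moved little, with -0.12 ± 0.065 for ATP6V0D1, 0.00 ± 0.04 for ATP6V0A2, 0.09 ± 0.055 for ATP6V1C1 and 0.14 ± 0.077 for ATP6V1G1, none of them called. The list held only 6 members that were not called, and the 13 that rose include subunits not given here. The rise was therefore not confined to the isoforms given above. Which cells expressed the other subunits was not tested. ATP6V1C2 overlaps PDIA6 on the other strand, which fell slightly (-0.11 ± 0.041).

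In calcium handling 13 of 30 genes rose (43.3%, against 23.8% of all genes) and 5 fell (16.7%). CASR, the receptor that senses extracellular calcium, had 1.67, 3.17 and 5.35 FPKM in day 15 males, against 0.369, 0.829 and 2.05 FPKM in day 11 males and changed by 1.81 ± 0.26 (adjusted p = 6.61e-06), with overlapping groups. The calcium-binding protein genes S100A6, S100A1 and CALML3 changed by 0.99 ± 0.095, 1.0 ± 0.15 and 1.29 ± 0.20, the calcium pump of the endoplasmic reticulum ATP2A3 by 1.03 ± 0.08, the vitamin D receptor VDR by 0.47 ± 0.16 and the phosphate carrier SLC34A2 by 0.78 ± 0.19. S100A4 changed by 1.51 ± 0.37 in overlapping groups, and its value was 2.02 against the day 11 males numbered 24 to 48 and 0.98 against those numbered 2 to 16. PTHLH, the parathyroid hormone-like peptide, changed by -2.16 ± 0.28, with a median of 0.250 FPKM in day 15 males and 1.46 FPKM in day 11 males. STC2, a stanniocalcin, changed by -1.56 ± 0.53, but this rested on the day 11 males numbered 24 to 48 (-2.89, adjusted p = 0.000112), since against the others it was -0.25 (adjusted p = 0.686). The plasma membrane calcium pump ATP2B1 fell slightly.

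Among 35 genes of ion and water transport 17 rose (48.6%, against 23.8% of all genes) and 5 fell (14.3%). ANO1, a calcium-activated chloride channel, had 18.5, 26.1 and 36.5 FPKM in day 15 males, against 2.46, 4.13 and 8.00 FPKM in day 11 males and changed by 2.54 ± 0.17 (adjusted p = 6.88e-11) without overlap. Genes of sodium recovery were among those that rose, apart from SCNN1G. The sodium channel subunits SCNN1A and SCNN1B changed by 1.17 ± 0.12 and 0.86 ± 0.065, SCNN1G by 0.35 ± 0.15 (adjusted p = 0.0568), the sodium pump subunits ATP1B1 and ATP1B3 by 0.53 ± 0.079 and 1.01 ± 0.12, and SGK1, a kinase that keeps the sodium channel at the membrane, by 1.22 ± 0.15 (SGK1 overlaps SLC2A12 on the same strand). HSD11B2, which shields the mineralocorticoid receptor from glucocorticoids, changed by 1.02 ± 0.23, whereas that receptor, NR3C2, changed by -0.36 ± 0.07. The water channel AQP5 had 0.476, 13.9 and 35 FPKM in day 15 males, against 19.0, 26.5 and 69.2 FPKM in day 11 males and a fold change of -1.73 ± 0.62 (adjusted p = 0.0257), which was lost against either part of the day 11 group alone (adjusted p = 0.140 and 0.0795). The more abundant channels AQP1 and AQP3 were not called.

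Proliferation genes fell almost without exception. Of 67 tested genes of DNA replication and mitosis 64 were lower at day 15, against 24.5% of all genes. The list had a median change of -1.35. In 58 of the 67 genes all day 15 males lay below all day 11 males, against 6.03% of all genes. The counts of lower genes were 64 and 63 against each part of the day 11 group. PLK1, a mitotic kinase, had 5.08, 7.75 and 10.1 FPKM in day 15 males, against 27.4, 32.9 and 39.4 FPKM in day 11 males and changed by -2.06 ± 0.11 (adjusted p = 3.06e-12). Its day 15 values were all below its day 11 values, as were those of RRM2. RRM2, the subunit of ribonucleotide reductase made in S phase, had 8.27, 12.4 and 15.1 FPKM in day 15 males, against 42.2, 50.3 and 58.9 FPKM in day 11 males and changed by -2.01 ± 0.10 (adjusted p = 2.3e-12). GINS2 of the replication helicase changed by -2.06 ± 0.12, TOP2A by -2.0 ± 0.12 and CDK1 by -1.84 ± 0.11. The 3 members that did not fall were all partners of G1 entry, namely CDK6 (0.30 ± 0.059, called higher), CCND2 (0.07 ± 0.076) and CCND1 (-0.04 ± 0.066). PLK1 overlaps ERN2 on the other strand.

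Among 22 genes of cell cycle arrest 8 rose (36.4%, against 23.8% of all genes) and 3 fell (13.6%, against 24.5%), with modest sizes. BTG2, an antiproliferative gene, had a median of 204 FPKM in day 15 males and 125 FPKM in day 11 males and changed by 0.76 ± 0.07, TOB1 by 0.64 ± 0.064, the inhibitor CDKN1B by 0.25 ± 0.061 and CDKN1A by 0.16 ± 0.17 (adjusted p = 0.431). The inhibitor CDKN2C and the pocket protein RBL1 fell with the proliferation genes (-0.63 ± 0.11 and -0.56 ± 0.066). Growth regulators divided by member. MYC and MYCN changed by -0.62 ± 0.088 and -0.89 ± 0.087, and MYCL by 1.01 ± 0.11. The messenger-binding proteins IGF2BP1 and IGF2BP3 changed by -0.74 ± 0.084 and -0.82 ± 0.055, and IGF2BP2 by 1.32 ± 0.14. Of these 23 growth regulators 12 rose (52.2%) and 7 fell (30.4%), but 7 rose against the day 11 males numbered 24 to 48.

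Vessel genes moved in both directions. Of 51 genes of angiogenic signalling 20 rose (39.2%) and 15 fell (29.4%), against background shares of 23.8% and 24.5%. VEGFA, the main growth factor of capillaries, had a median of 28.1 FPKM in day 15 males and 32.4 FPKM in day 11 males and was not called (-0.16 ± 0.16), whereas PGF, ANGPT2, EDN1 and PDGFB changed by 0.84 ± 0.077, 0.52 ± 0.055, 0.98 ± 0.14 and 0.55 ± 0.13. THBS2, a thrombospondin that restrains vessel growth in mice, had 35.2, 72.4 and 91.3 FPKM in day 15 males, against 16.8, 31.6 and 47.9 FPKM in day 11 males and changed by 1.16 ± 0.15 (adjusted p = 1.15e-06), with overlapping groups. MET, the receptor of hepatocyte growth factor, changed by 1.07 ± 0.13. Genes of sprouting and guidance were among those that fell, CXCR4 by 1.22, APLNR by 0.61, EDNRB by 1.01, SEMA3C by 0.82 and SLIT2 by 0.61 on the log2 scale.

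Of 41 endothelial genes 17 rose (41.46%, against 23.8% of all genes) and 9 fell (21.95%, against 24.5%). Their summed level was 2115 to 2702 FPKM in day 15 males, against 1930 to 2339 FPKM in day 11 males. None of these genes was at 0 in all males. ADGRL4, an adhesion receptor of endothelium, changed by 1.01 ± 0.10, the TGF-beta co-receptor ENG by 0.74 ± 0.082, PECAM1 by 0.64 ± 0.082 and VWF by 0.56 ± 0.086, with medians of 336 FPKM in day 15 males and 221 FPKM in day 11 males for PECAM1. CDH5, the cadherin of endothelial junctions, changed by -0.23 ± 0.053, the lymphatic factor PROX1 by -0.61 ± 0.22 and the lymphatic receptor FLT4 by -0.36 ± 0.077. ESM1, a gene of sprouting tips in mammals, changed by -0.96 ± 0.27, and by -0.81 (adjusted p = 0.0786) against the 5 day 11 males numbered 24 to 48. Smooth muscle and pericyte genes rose in 17 of 32 cases (53.1%, against 23.8% of all genes) and fell in 4 (12.5%). RGS5, a pericyte gene, had 14.9, 26 and 32.5 FPKM in day 15 males, against 4.18, 6.11 and 36.2 FPKM in day 11 males and changed by 1.65 ± 0.28 (adjusted p = 4.42e-05). In RGS5 a single day 11 male, at 36.2 FPKM, lay above all day 15 males, and the fold change was 2.12 against the day 11 males numbered 2 to 16 and 1.17 against those numbered 24 to 48. The contractile genes CNN1, ACTA2, TAGLN, DES and MYH11 changed by 1.2 ± 0.25, 0.86 ± 0.092, 0.80 ± 0.14, 0.63 ± 0.087 and 0.59 ± 0.14, with CNN1 at 1.68 and 0.71 against the same parts, while the pericyte channel genes ABCC9 and KCNJ8 fell (-0.59 ± 0.11 and -0.58 ± 0.081).

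Of 34 tested genes of fibroblasts and mesothelium 21 fell (61.8%, against 24.5% of all genes) and 8 rose (23.5%, against 23.8%), with a median change of -0.29. The mesenchymal transcription factors TWIST2, HAND1, TCF21, TWIST1 and SNAI1 changed by -0.90 ± 0.13, -0.91 ± 0.089, -0.40 ± 0.10, -0.38 ± 0.13 and -0.34 ± 0.066, and VIM by -0.36 ± 0.086. PSCA and MSLN, PRRX2 (2.06 ± 0.21) and THY1 (0.93 ± 0.10) stood against this direction, and mesothelial UPK3B fell by 1.32 on the log2 scale while MSLN rose. The summed level of the stromal markers was 3171 to 4060 FPKM in day 15 males, against 3215 to 4311 FPKM in day 11 males, ranges that overlap almost fully.

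The matrix changed in its parts. Fibrillar collagen genes COL1A1, COL1A2 and COL5A2 changed by -0.30 ± 0.11, -0.30 ± 0.10 and -0.35 ± 0.089, and COL3A1 was not called. Other collagen genes rose, among them COL14A1 by 1.35 ± 0.16, COL12A1 by 1.03 ± 0.15, COL6A3 by 0.97 ± 0.11 and COL8A1 by 1.82 ± 0.21. LOXL1, a lysyl oxidase that crosslinks elastin, had 191, 259 and 288 FPKM in day 15 males, against 66.1, 74.8 and 91.1 FPKM in day 11 males and changed by 1.69 ± 0.085 (adjusted p = 2.3e-12) without overlap. In all 12 of 29 collagen and crosslinking genes rose (41.4%, against 23.8% of all genes) and 7 fell (24.1%, against 24.5%). Of 42 matrix glycoproteins and proteoglycans 11 rose and 13 fell, near the background. FMOD and TNC, a collagen-binding proteoglycan and tenascin-C, changed by 1.93 ± 0.13 and 1.74 ± 0.18, FREM1 by -1.65 ± 0.20 and LAMA1 by -1.29 ± 0.12. SPP1, osteopontin, changed by -3.57 ± 0.58, with a median of 0.0849 FPKM in day 15 males and 1.54 FPKM in day 11 males. Among 39 proteases and inhibitors 12 rose (30.8%) and 5 fell (12.8%). MMP27 changed by 2.19 ± 0.17 and TIMP3 by 0.71 ± 0.11, whereas ADAMTS2 (0.74 ± 0.17) was at 0.37 against the day 11 males numbered 24 to 48 (adjusted p = 0.109) and 1.10 against the others, and ADAM19 (-1.0 ± 0.28) lost the call against those numbered 2 to 16 (adjusted p = 0.0920).

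Markers of macrophages fell more often than they rose. Of 38 tested myeloid genes 19 were lower (50%, against 24.5% of all genes) and 6 higher (15.8%, against 23.8%) at day 15, with a median change of -0.29. TIMD4, a receptor of resident macrophages for dying cells (ENSGALG00000003876, chromosome 13, 12172827 to 12188986), had 0.0651, 0.592 and 0.984 FPKM in day 15 males, against 2.15, 4.83 and 6.98 FPKM in day 11 males and changed by -2.79 ± 0.28 (adjusted p = 4.57e-08). CSF1R, the receptor on which macrophages depend, had 4.18, 7.35 and 8.86 FPKM in day 15 males, against 13.5, 19.1 and 29.9 FPKM in day 11 males and changed by -1.48 ± 0.14 (adjusted p = 1.09e-08). In neither gene did the groups overlap. MARCO, SPI1, TREM2, C1QB and CYBB changed by -2.34 ± 0.40, -1.64 ± 0.16, -1.54 ± 0.15, -1.17 ± 0.28 and -1.54 ± 0.18. The members that rose were the granulocyte peptides AvBD1 (1.5 ± 0.42) and CATHL3 (1.40 ± 0.37), TREM-B1, and 3 genes that epithelia also express, LGALS3, CTSS and CEBPB. Which cells expressed them here was not tested. The summed level of the 40 markers was 665 to 933 FPKM in day 15 males, against 560 to 775 FPKM in day 11 males. Its median was higher at day 15 (767 against 661 FPKM), although more members fell than rose. AvBD1, an avian beta-defensin, reached 175 FPKM in 1 day 15 male and lost its call against the day 11 males numbered 24 to 48 (adjusted p = 0.0831). TIMD4 overlaps HAVCR1 on the same strand.

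Genes of other blood cells changed in both directions. Lymphocyte genes were scarce, with summed levels of 50.2 to 66.8 FPKM in day 15 males, against 44.6 to 57.7 FPKM in day 11 males, 15 of 31 models tested, and the 3 CD8A models at or below 0.203 FPKM in all males. The CD3 chains of the T cell receptor, CD3D and CD3E, changed by 0.77 ± 0.13 and 0.65 ± 0.17, the B cell chain CD79B by 0.92 ± 0.20, and the pan-leukocyte gene PTPRC by -0.80 ± 0.12. CD28, a costimulatory receptor of T cells, had 1.76, 4.43 and 7.06 FPKM in day 15 males, against 0.0456, 0.177 and 0.301 FPKM in day 11 males and changed by 3.94 ± 0.27 (adjusted p = 9.38e-11) without overlap, and was named after its values were seen. Among 16 thrombocyte genes 6 rose (37.5%, against 23.8% of all genes) and 2 fell (12.5%, against 24.5%). Their summed levels were 243 to 333 FPKM in day 15 males and 197 to 239 FPKM in day 11 males. P2RX1 and GP9 changed by 0.92 ± 0.14 and 1.01 ± 0.22, and F13A1, which macrophages also make, by -1.10 ± 0.13. Of 25 erythroid genes 7 rose and 7 fell (28% each), and the embryonic globins HBBR, HBZ and HBE were among those that fell. Summed erythroid levels were 12435 to 50639.6 FPKM in day 15 males and 19979 to 31921 FPKM in day 11 males. BPGM, the red cell enzyme that sets oxygen affinity, changed by 1.5 ± 0.14, with a median of 137 FPKM in day 15 males and 44.8 FPKM in day 11 males, and the haem enzyme FECH by -0.72 ± 0.073. The part of these cell markers in the changes of other genes was not tested.

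Of 41 innate immune genes 13 rose (31.7%, against 23.8% of all genes) and 6 fell (14.6%, against 24.5%). The Toll-like receptors TLR4, TLR7 and TLR15 changed by -1.42 ± 0.15, -1.22 ± 0.18 and -1.23 ± 0.23, and the chemokine CCL4 by -1.40 ± 0.22. IL6 and the NF-kappa-B inhibitor NFKBIA changed by 1.07 ± 0.17 and 0.58 ± 0.10. CXCL14, an epithelial chemokine, had 5.43, 22.7 and 68.6 FPKM in day 15 males, against 2.05, 4.65 and 16.9 FPKM in day 11 males and changed by 2.10 ± 0.47, with 2.77 against the day 11 males numbered 2 to 16 and 1.43 against the others, which was not called (adjusted p = 0.0633). Of 41 interferon and antigen presentation genes 15 rose (36.6%) and 5 fell (12.2%). GBP, a guanylate-binding protein, changed by 1.67 ± 0.27, the class I gene BF1 by 0.87 ± 0.11 and B2M by 0.43 ± 0.11, while LY6E changed by -0.90 ± 0.13. BF1 and BF2 are near-identical, and BF1 overlaps several neighbours. Among 21 antimicrobial and egg defence genes 7 rose and 7 fell (33.3% each). ASTL and TF, the transferrin of egg white and serum (-1.43 ± 0.23, overlapping SRPRB on the same strand), were among the decreases. Of 24 complement and coagulation genes 4 rose and 4 fell, both shares below the background, with F10 at -0.80 ± 0.11.

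Of 36 steroid genes 11 rose (30.6%) and 8 fell (22.2%), near the 23.8% and 24.5% of all genes, with some large single increases. SRD5A2, a steroid 5-alpha-reductase, had 1.83, 6.22 and 11.1 FPKM in day 15 males, against 0.128, 0.347 and 0.914 FPKM in day 11 males and changed by 3.53 ± 0.32 (adjusted p = 7.3e-09). FKBP5, a chaperone partner of steroid receptors and a classic glucocorticoid target, had 64.6, 157 and 219.9 FPKM in day 15 males, against 18.1, 24.3 and 41.7 FPKM in day 11 males and changed by 2.49 ± 0.19 (adjusted p = 6.99e-10). All day 15 males exceeded the highest day 11 male in both genes. The nuclear receptor NR0B1 changed by 2.34 ± 0.20, whereas the glucocorticoid receptor NR3C1 was not called (-0.13 ± 0.084) and NR5A2 changed by -1.28 ± 0.17. In the prostaglandin pathway 9 of 25 genes rose (36.0%) and 6 fell (24%). The cyclooxygenases PTGS1 and PTGS2, which make the common precursor, had 74.6, 116 and 162 FPKM in day 15 males, against 22.1, 30.6 and 44.1 FPKM in day 11 males for PTGS1 and 16.6, 28.7 and 42.9 FPKM in day 15 males, against 6.06, 7.69 and 10.5 FPKM in day 11 males for PTGS2. They changed by 1.95 ± 0.14 and 1.87 ± 0.15 (adjusted p = 1.58e-10 and 1.31e-09) without overlap. The prostaglandin E synthase PTGES, the carriers ABCC4 and SLCO2A1 and the degrading enzyme HPGD changed by 1.5 ± 0.17, 1.01 ± 0.17, 0.93 ± 0.10 and 0.83 ± 0.11. HPGDS, TBXAS1 and the receptors PTGER3, PTGER4 and PTGFR fell, the receptors by 1.01, 0.46 and 0.44 on the log2 scale.

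Of 27 thyroid hormone and retinoid genes 8 were higher (29.6%, against 23.8% of all genes) and 9 lower (33.3%, against 24.5%), both near the background. DIO2, the deiodinase that makes active thyroid hormone, had 3.49, 5.31 and 8.50 FPKM in day 15 males, against 20.7, 28.8 and 62.5 FPKM in day 11 males and changed by -2.40 ± 0.22 (adjusted p = 7.21e-09). RBP, named as a retinol-binding protein, had 1.65, 2.84 and 4.28 FPKM in day 15 males, against 10.7, 18.6 and 26.7 FPKM in day 11 males and changed by -2.60 ± 0.20 (adjusted p = 7.11e-10). Day 15 lay below day 11 throughout in both. Enzymes that make retinoic acid, ALDH1A2 and ALDH1A3, changed by -1.10 ± 0.13 and -1.13 ± 0.13, the degrading enzyme CYP26A1 by -1.18 ± 0.21 and the receptor RXRG by -1.89 ± 0.26. The thyroid hormone receptor THRB and the target KLF9 changed by 0.73 ± 0.17 and 0.96 ± 0.17, and the carotenoid-cleaving enzymes BCO2 and BCO1 by 1.87 ± 0.37 and 0.88 ± 0.16.

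Hedgehog genes stood among those that fell within a list of BMP, TGF-beta and hedgehog genes, of which 18 of 50 rose (36.0%, against 23.8% of all genes) and 14 fell (28.0%, against 24.5%). IHH, a hedgehog ligand, had 0.238, 0.723 and 1.33 FPKM in day 15 males, against 2.10, 2.70 and 4.73 FPKM in day 11 males and changed by -1.80 ± 0.22 (adjusted p = 5.02e-07), without overlap. The receptor and target PTCH1 changed by -0.32 ± 0.075, the transcription factors GLI1, GLI2 and GLI3 by -0.95 ± 0.14, -0.60 ± 0.089 and -0.55 ± 0.17, the inhibitor HHIP by -1.2 ± 0.21 and the transducer SMO by -0.11 ± 0.042. SHH rose at a low level (1.72 against 1.1 FPKM, medians of day 15 and day 11 males, change 0.77 ± 0.19) and DHH was not called. These 9 hedgehog genes were singled out after their values were seen. Among BMP genes that rose, BMP2 stood at 0.76 ± 0.11, BMP6 at 0.76 ± 0.069 and the BMP targets ID1, ID3 and ID4 at 0.92 ± 0.084, 0.79 ± 0.083 and 1.19 ± 0.10, while the BMP inhibitors GREM1 and SOSTDC1 changed by -0.79 ± 0.18 and -1.24 ± 0.15.

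Of 46 WNT genes 11 rose (23.9%, against 23.8% of all genes) and 16 fell (34.8%, against 24.5%), and 6 rose against the day 11 males numbered 24 to 48. WIF1, a secreted WNT inhibitor, had 15.0, 30.4 and 36.9 FPKM in day 15 males, against 67.6, 92.0 and 169.9 FPKM in day 11 males and changed by -1.78 ± 0.18 (adjusted p = 4.89e-08), without overlap. WNT10A, a ligand of surface epithelia, changed by 1.65 ± 0.11, with a median of 45.7 FPKM in day 15 males and 15.2 FPKM in day 11 males. WNT11, with a low mean level (below 0 on the log2 scale), changed by -3.62 ± 0.31. WNT9B changed by -1.80 ± 0.27 and the WNT-activated factor LEF1 by -0.92 ± 0.088, whereas the target AXIN2 was not called (-0.11 ± 0.08). HOX genes, which record position along the body, moved little, with 2 of 31 higher (6.45%, and 1 against the day 11 males numbered 2 to 16), 10 lower (32.3%) and a median change of -0.07. HOXC10, HOXB5 and HOXB3 changed by -1.0 ± 0.18, -0.77 ± 0.13 and -0.69 ± 0.14, and HOXB7 and HOXA7 by 0.41 ± 0.09 and 0.41 ± 0.057.

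Lipid genes fell more often than they rose, 21 (42.9%, against 24.5% of all genes) against 10 (20.4%, against 23.8%) of 49, with a median change of -0.17. Enzymes of sterol and fatty acid synthesis were among them, SQLE by -0.96 ± 0.13, LSS by -0.80 ± 0.085, HMGCS1 by -0.42 ± 0.10, FADS2 by -1.2 ± 0.15, SCD by -0.66 ± 0.17 and FASN by -0.37 ± 0.07, together with their regulator SREBF1 (-0.47 ± 0.086). The second regulator SREBF2 was not called. The phosphatidate phosphatase LPIN1 and the lipase LPL changed by 1.45 ± 0.21 and 0.59 ± 0.066. The liver and yolk sac markers, a check for other extraembryonic tissue, had 9 of 27 members tested, with 3 higher (33.3%) and 4 lower (44.4%). Without the day 15 male numbered 67 or 86 or the day 11 male numbered 7 or 9, 2 were lower. Their summed level was 97.1 to 289 FPKM in day 15 males, against 289 to 940 FPKM in day 11 males, most of it APOA1. ALB, the defining marker, stood near 0 in both groups (0.678 against 0.598 FPKM, medians of day 15 and day 11 males), and APOV1 was at 0 in all males.

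Hypoxia response genes rose in 19 of 32 cases (59.4%, against 23.8% of all genes) and fell in 7 (21.9%, against 24.5%), with a median change of 0.23. The membrane supplies oxygen to an embryo whose demand grows over these days, but a link of that demand to these genes was not tested. EGLN3, an oxygen-sensing hydroxylase, had 4.02, 5.25 and 7.68 FPKM in day 15 males, against 1.03, 1.58 and 2.14 FPKM in day 11 males and changed by 1.65 ± 0.14 (adjusted p = 2.46e-09). DDIT4, an inhibitor of growth signalling under stress, had 241, 295 and 426 FPKM in day 15 males, against 106, 111 and 153 FPKM in day 11 males and changed by 1.42 ± 0.091 (adjusted p = 4.59e-11). Neither overlapped between the days, and DDIT4 shares exon sequence with ANAPC16 on the same strand. PDK4, BNIP3 and CA9 changed by 1.23 ± 0.17, 1.16 ± 0.092 and 0.73 ± 0.14, whereas EPAS1, the hypoxia factor of endothelium, and HMOX1 changed by -0.58 ± 0.076 and -0.99 ± 0.17 and HIF1A was not called. Of 37 glycolysis genes 13 rose (35.1%) and 8 fell (21.6%). PFKFB3 stood at 1.21 ± 0.24 (1.66 against the day 11 males numbered 2 to 16 and 0.75 against the others). HK2 was at 0.81 ± 0.11 and the liver-type phosphofructokinase PFKL at -1.0 ± 0.083. PFKL overlaps C9H21orf2 on the other strand.

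Oxidant defence, nutrient carriers and chaperones stayed near the background counts, with single strong members. CYP1A1, the monooxygenase induced through the aryl hydrocarbon receptor, had 33.4, 51.2 and 60.9 FPKM in day 15 males, against 10.6, 13.3 and 19.5 FPKM in day 11 males and changed by 1.82 ± 0.14 (adjusted p = 4.12e-10) without overlap. The peptide carrier SLC15A1 and the amino acid carrier SLC6A15 changed by 2.22 ± 0.27 and 2.61 ± 0.30. The constitutive chaperones HSP90AB1 and HSPA8 changed by -1.47 ± 0.11 and -0.69 ± 0.15, and the small heat shock proteins HSPB7 and HSPB2 by 1.13 ± 0.17 and 2.14 ± 0.36 (HSPB2 overlaps gene models on the other strand). Of 46 genes of protein folding and heat shock 15 rose (32.6%, against 23.8% of all genes) and 14 fell (30.4%, against 24.5%). Of 41 nutrient carriers 10 rose (24.4%) and 11 fell (26.8%), and of 54 genes of oxidant defence 18 rose (33.3%) and 13 fell (24.1%). Of 48 lysosome and autophagy genes 16 rose (33.3%) and 7 fell (14.6%). Neural genes fell in 8 of 21 cases (38.1%, against 24.5% of all genes) and rose in 2 (9.52%, against 23.8%). UCHL1, a neuronal ubiquitin hydrolase, had 1.32, 2.13 and 2.92 FPKM in day 15 males, against 8.65, 9.36 and 12.4 FPKM in day 11 males and changed by -2.15 ± 0.12 (adjusted p = 6.86e-12) without overlap. PRPH and SCG3 changed by -1.89 ± 0.27 and -1.42 ± 0.14, whereas the neuronal tubulin TUBB3 was not called (-0.19 ± 0.29). Summed neural markers were 159 to 338 FPKM in day 15 males and 257 to 440 FPKM in day 11 males. Muscle markers summed to 78.5 to 211 FPKM in day 15 males and 76.9 to 230 FPKM in day 11 males, with 3 of 12 higher (25%) and 2 lower (16.7%).

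**Figure D4:**
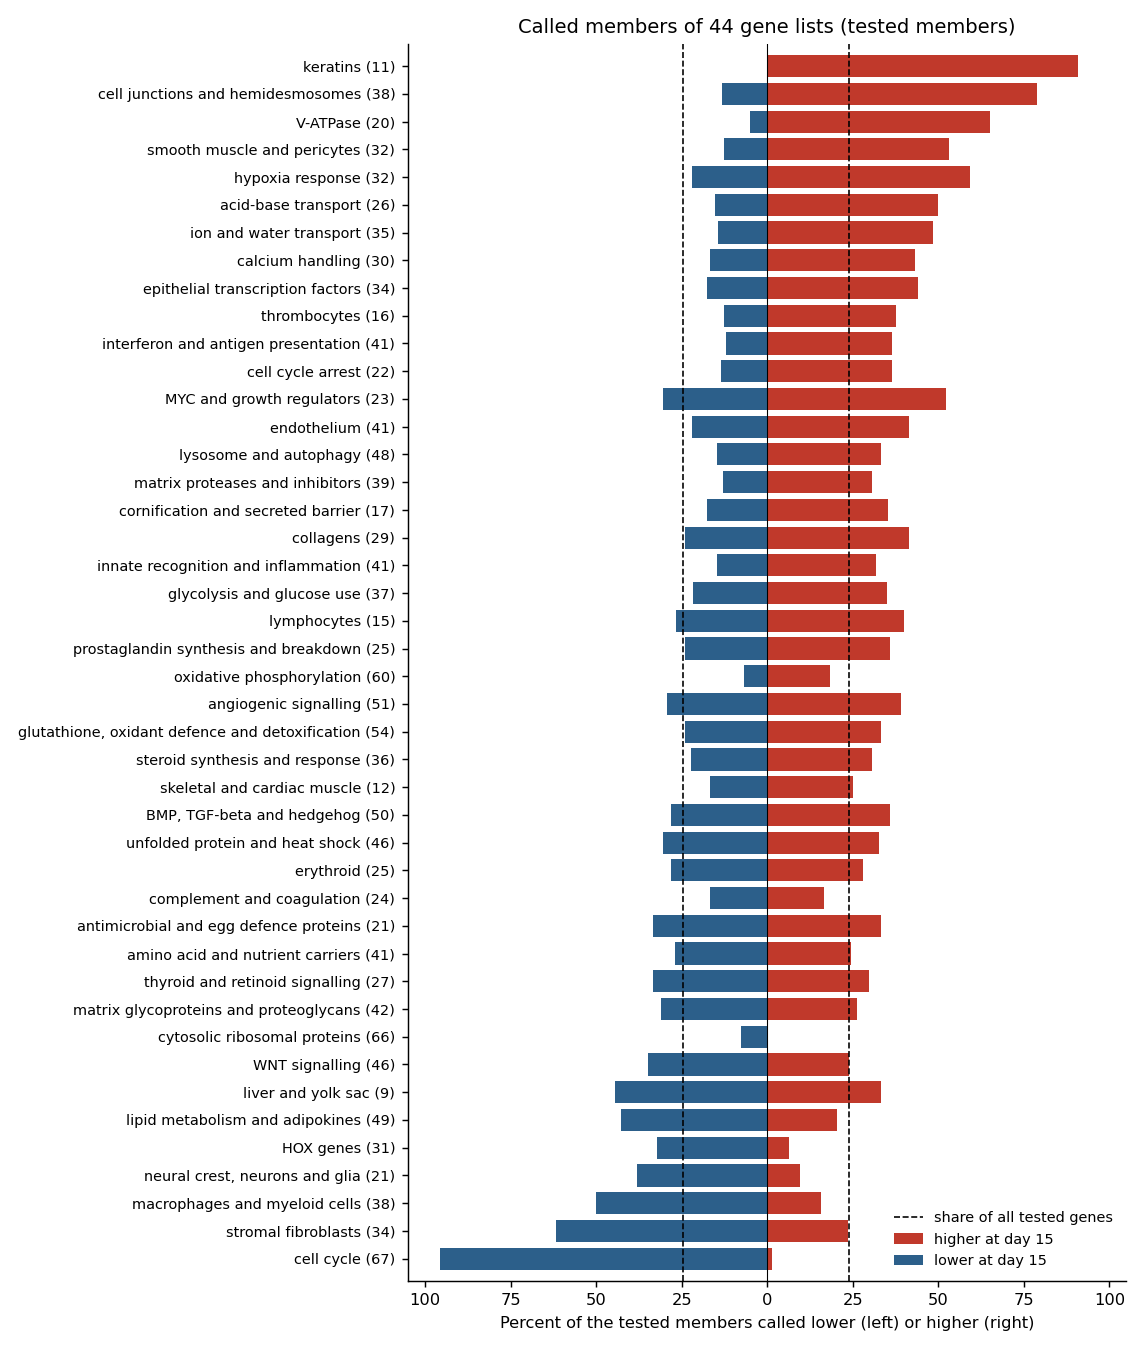
Percent of the tested members of 44 gene lists called higher (red, to the right) or lower (blue, to the left) at day 15 in males, with the number of tested members in parentheses. Dashed lines mark the shares over all tested genes, 23.8% higher and 24.5% lower. Keratins, junctions and the V-ATPase lie far to the right and cell cycle genes far to the left.

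Classes of transcripts differed in their share of calls. Of 12760 protein-coding genes 24.3% were higher and 26.1% lower. Long noncoding RNAs rose more often than they fell, with 24.1% and 14.9% of 776. Among 127 small nucleolar RNAs 1 was higher (0.79%) and 26 were lower (20.5%), and among 208 microRNA precursors 39 were higher (18.75%) and 9 lower (4.33%). Each of these shares lay below that of all genes, 23.8% higher and 24.5% lower. Neither class is well measured by libraries made from longer RNA. Among chromosomes with at least 100 tested genes the share of higher genes reached from 15.8% of 253 on chromosome 33 to 29.5% of 241 on chromosome 26. Chromosome Z, of which males carry a pair, had 23.2% higher and 25.8% lower of 655 genes, close to the shares of the genome.

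The change with day was then compared with that of female membranes, in a fit over all 40 libraries. Of 7581 genes called in males 6082 were also called in females, 80.2% of the male and 83.8% of the female calls, and all 6082 had the same direction. The difference between the male and the female change itself passed the threshold in 4 of 15880 genes (0.0252%, limma), with 500 at an unadjusted p below 0.05. TMOD1, an actin-capping protein on chromosome Z (ENSGALG00000002125, 70995461 to 71015584), had 9.07, 12.6 and 15.1 FPKM in day 15 males, against 11.5, 12.7 and 14.6 FPKM in day 11 males. In females it had 3.24, 3.77 and 4.23 FPKM at day 15, against 5.31, 7.09 and 8.69 FPKM at day 11. Its change was -0.09 ± 0.085 in males and -0.80 ± 0.085 in females, a difference of 0.72 ± 0.12 (adjusted p = 0.00423). ENSGALG00000048050, a gene model on chromosome Z with no symbol, had a median of 2.06 FPKM in day 15 males and 2.72 FPKM in day 11 males, and of 8.55 FPKM in day 15 females and 2.0 FPKM in day 11 females (difference -2.31 ± 0.41, adjusted p = 0.00886). The other 2, XLOC_027788 and XLOC_027758, are gene models without a position that are listed at 0 in all 20 males, so that no male change could be measured.

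Counts of translation and respiration genes turned on the split of the day 11 group. Of 66 cytosolic ribosomal protein genes 5 fell and 0 rose, fewer than the background, with RPS2, RPL10A and RPS27A at -0.43 ± 0.10, -0.31 ± 0.071 and -0.25 ± 0.095. RPS2 overlaps NDUFB10 on the other strand. Against the males numbered 2 to 16 these 3 were at -0.70, -0.44 and -0.46, and against the others at -0.17, -0.19 and -0.05. Against the 5 day 11 males numbered 24 to 48 alone 0 fell and 2 rose, and against the 5 numbered 2 to 16 alone 48 fell. Without the day 15 male numbered 81, in which RPL10A and RPS27A had their highest values of that day, 21 fell, and without single other libraries 2 to 5 (with 1 higher without the day 11 male numbered 16). Of 60 genes of oxidative phosphorylation 11 rose (18.3%, against 23.8% of all genes) and 4 fell (6.67%, against 24.5%). Those counts were 19 and 1 against the day 11 males numbered 24 to 48, and 3 and 16 against those numbered 2 to 16, and without the day 15 male numbered 81 the number that fell was 8. UQCRC1, a subunit of respiratory complex III, changed by 0.53 ± 0.06, and PPARGC1A, the coactivator of mitochondrial genes, by 0.95 ± 0.13. In the plot of counts by the day 11 males used, the cell cycle, junction, keratin and V-ATPase lists differed by at most 4 members between each part and all day 11 males. Against the males numbered 24 to 48 the counts were lower for matrix proteases that rose (7), collagens that fell (3), myeloid genes that rose (3), innate genes that fell (3), muscle and neural genes that rose (1 each), oxidant defence genes that fell (7) and chaperones that fell (9). Against those numbered 2 to 16 they were lower for junction genes that fell (3), ion and water genes that fell (2), calcium genes that fell (3), also 3 against the others, hypoxia genes that fell (4) and HOX genes that rose (1), and higher for V-ATPase genes that fell (2) and keratins that fell (1).

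**Figure D5:**
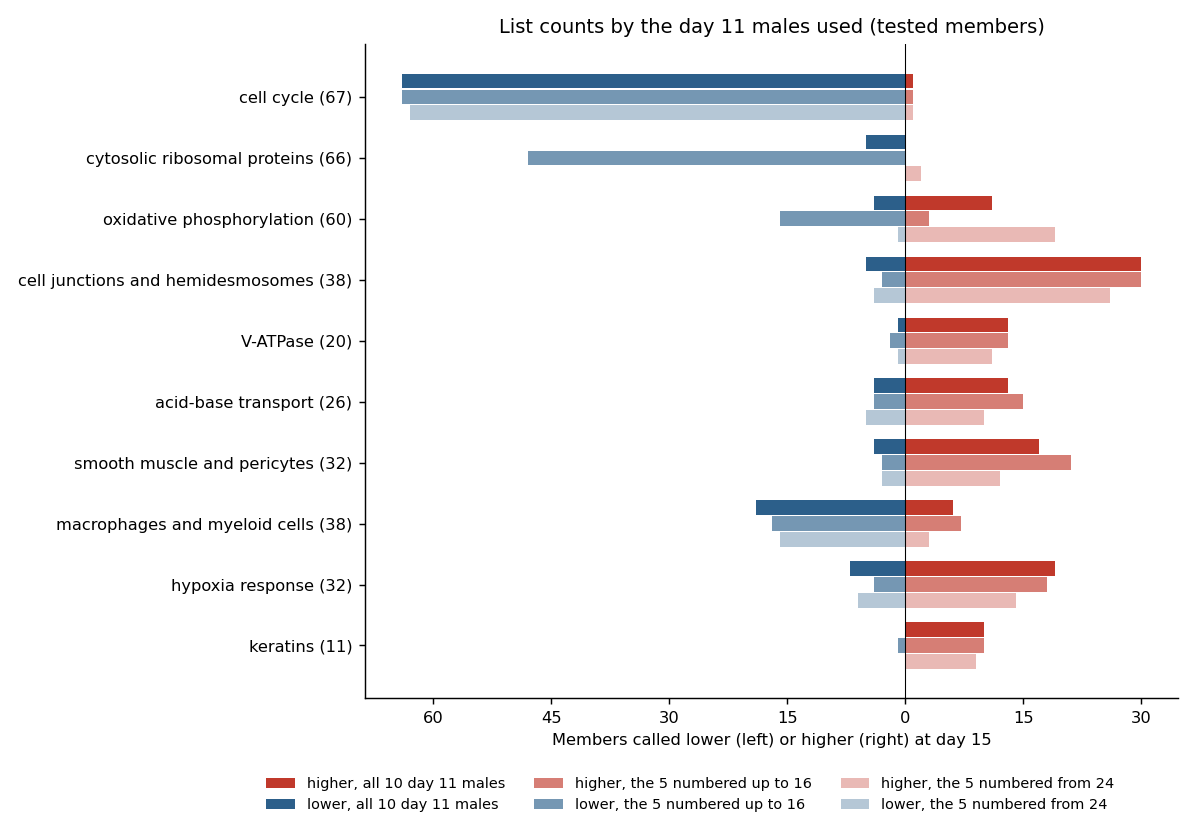
Number of members called higher (red, right) or lower (blue, left) at day 15 in 10 gene lists, with the tested members in parentheses. Dark bars use all 10 day 11 males, middle bars the 5 numbered 2 to 16 and light bars the 5 numbered 24 to 48. Ribosomal protein genes that fell number 5, 48 and 0.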

How the data were processed

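The authors deposited 1 table of FPKM for 40 libraries, each from the membrane of 1 embryo. It is labelled as raw counts but holds FPKM: low values are whole multiples (tolerance 0.01) of 1 read per gene length, which also gave the depth. Libraries were made from 1 µg of RNA by the NEBNext Ultra protocol, as the labels' protocols record. HISAT2, HTSeq and the build GRCg6a are named in the submitters' processing notes, with no version; the strand setting is not given in the sources used here. Overlapping and antisense genes therefore cannot be told apart, and near-identical genes (globins, keratins, BF1 and BF2) are uncertain.

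Because the values are FPKM, no count model was run. Each library was scaled by a trimmed mean of log ratios (30% of ratios and 5% of levels trimmed at each end, factors 0.932 to 1.07) and log2(scaled FPKM + 0.1) was tested with limma 3.58.1 (intensity trend, robust prior, statmod 1.5.0, R 4.3.3) on the 20 male libraries, in genes with at least 0.5 FPKM in 10 of them. Lowest, median and highest values in the text are deposited FPKM, unscaled. The difference between the sexes was the interaction in a fit over all 40 libraries. Permutation tests of library measures were two-sided with 100000 resamples (SciPy 1.17.1, Python 3.11.15, numpy 2.4.6, pandas 2.3.3, matplotlib 3.10.9). No male libraries held identical values (0 pairs). The replicates are separate embryos.

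Gene names come from the deposited annotation, matched to lists without regard to case. The comparison, its members and all 44 lists were chosen with earlier results of these data known. Named genes are, among called genes with a symbol and a mean log2 level of at least 1, the 12 largest changes in each direction and the 6 most abundant with at least a 2-fold change in each direction, and for each list up to 3 called members, largest change first, whose mean level was at least 0. Other list members are named with values to show what a list's count holds, and some genes of the rule are not reported here. Scripts were tested on simulated data. Alternatives were the pseudocount, the filter, the scaling, the prior, sample weights, the embryo number as a covariate, all 4 groups in the fit, each part of the day 11 group, and leaving out each male library. Promoter and protein sequences were not used here.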

Additional observations from a re-analysis of the deposited data

Results flagged for a closer look

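Single libraries that stood far from the others of their day were found in 20 of 286 pairs of a named gene and a day, in 19 genes. The measure was the gap to the nearest library relative to the range, above Dixon's critical value of 0.466 for 10 libraries. For genes it was taken on the scale log2(scaled FPKM + 0.1), while the values printed here are deposited FPKM. Chance flags about 1 in 20 groups. In day 15 males the lowest library lay apart in AGR2 (317 FPKM) and ELF3 (96.8 FPKM), both in embryo 76, in TIMD4 (0.0651 FPKM) and PRPH (0.295 FPKM), both in embryo 98, in SLC9A2 (5.58 FPKM, embryo 57), CNN1 (18.2 FPKM, embryo 52) and IHH (0.238 FPKM, embryo 93). The highest lay apart in STC2 (14.5 FPKM, embryo 100) and BF1 (68.3 FPKM, embryo 93). The day 15 male numbered 81 was lowest in THBS2 (35.2 FPKM) and ADAMTS2 (11.6 FPKM) and highest in RPL10A (622 FPKM), in RPS27A (1430.4 FPKM) and in its haemoglobin share (7.61%). In day 11 males the lowest library lay apart in ISLR2 (0.0106 FPKM, embryo 2), AGR2 (164 FPKM, embryo 14), S100A4 (1.2 FPKM, embryo 24), LPIN1 (0.335 FPKM, embryo 7) and HOXC10 (2.91 FPKM, embryo 38), and the highest in AQP5 (69.2 FPKM, embryo 16) and DDIT4 (153 FPKM, embryo 7).

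The change with day differed between males and females by the interaction test in 4 genes, given as male minus female change in log2 units. TMOD1 differed by 0.72, ENSGALG00000048050 by -2.31, XLOC_027788 by 1.57 and XLOC_027758 by 2.35. The XLOC models were at 0 in every male library, with female medians of 0.230 and 0.592 FPKM at day 15 and 0.765 and 3.22 FPKM at day 11.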

How the results depend on the processing

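Leaving out each male library in turn gave 3333 to 3662 genes higher and 3476 to 3773 lower at day 15, kept at least 6706 of the calls and turned the sign of 0. The other alternatives gave 2809 to 3821 higher and 2749 to 4196 lower, with the lowest counts against the day 11 males numbered 24 to 48, where 4823 of 7030 calls were kept and 17 changed sign. Against those numbered 2 to 16, 5971 of 6996 were kept and 0 changed sign. Of 143 named genes 129 kept their call and direction in every setting and 0 reversed. In 14 the call was lost in some alternative, ASTL, STC2, AQP5, ESM1, ADAM19, ADAMTS2, CXCL14, AvBD1, F7, TAT, MYBPC1, RPS2, RPL10A and RPS27A. Against the day 11 males numbered 24 to 48 it was lost in AQP5, ESM1, ADAMTS2, CXCL14, AvBD1, MYBPC1, RPS2, RPL10A and RPS27A. Leaving out single libraries ended the call of TAT, MYBPC1 and RPS27A. Of 88 counts over the lists 24 moved by over 1.5 times, and 7 of these under an alternative other than the choice of day 11 males. Ribosomal protein genes that fell numbered 16 without scaling. The genes whose change differed between the sexes were 4, against 8 with a pseudocount of 1 and 8 with no filter, and 3 to 8 over the alternatives; the cause was not tested. No paired analysis was possible because the day 15 and day 11 males share no replicate numbers. Values below 0.1 FPKM are compressed by the pseudocount, and depth limits the genes with the lowest levels.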

Other observations

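Some genes varied widely among day 15 males. They were chosen after their values were seen, by the standard deviation of log2(scaled FPKM + 0.1) among the 10 day 15 males. PCP4, a calmodulin-binding peptide, had 3.47, 175 and 349 FPKM (lowest, median, highest) in day 15 males, against 8.08, 96.9 and 175 FPKM in day 11 males, a standard deviation of 1.96 at day 15. DEFB4A, an avian beta-defensin, had 1.58, 9.01 and 52.5 FPKM in day 15 males, against 1.71, 3.42 and 7.35 FPKM in day 11 males, a standard deviation of 1.54 at day 15. BD7, another defensin, had a standard deviation of 1.71 at day 15. LECT2, a secreted leukocyte chemotactic protein, had 1.51.

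Among gene models without a symbol, XLOC_002808 was at or below 0.0796 FPKM in each day 15 male, against 0.503 to 35.3 FPKM in day 11 males.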
